A study of Oryzias latipes with 5 samples.

Results

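The enzymes and chaperones that modify and fold procollagen in the endoplasmic reticulum (ER) were described in medaka (Oryzias latipes, a small laboratory fish, Cab strain) as 11 genes out of 25689 in the deposited table. They were taken by symbol, as every gene named p4ha1, p4ha2, plod1, plod2, plod3, serpinh1, crtap, p3h1, ppib or fkbp10, with or without the suffix a or b that marks a fish gene copy. The list of symbols was drawn up with earlier results of these data known. Messenger RNA came from cells labelled chondrocytes and osteoblast progenitors at 10 days post fertilization, from embryos kept at 30 °C. The wild-type siblings were col10a1wt/wt, col10a1:nlGFP+/+ (3 libraries) and the mutants col10a1wt/mut, col10a1:nlGFP+/+ (2 libraries), so every fish carried the nuclear reporter on both alleles and the mutants kept 1 wild-type col10a1 allele. Type X collagen, the product of col10a1, is itself a substrate of these enzymes, and the comparison asks how expression differed between the genotypes in cells that the study describes as expressing the reporter. The labels describe the libraries as biological replicates and do not give the number of fish behind each, the mutation itself or how cells were collected.

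Collagen chains are modified before they wind into a helix. Prolyl 4-hydroxylase, built of alpha subunits and the disulfide isomerase p4hb, makes the hydroxyproline that keeps the helix stable at body temperature, and lysyl hydroxylases make the hydroxylysine that carries sugars and later cross-links. The prolyl 3-hydroxylation complex of p3h1, crtap and the isomerase ppib, together with the chaperones serpinh1 and fkbp10, assists folding of the chains, and in humans loss of several of these genes causes brittle bone disease.

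The libraries held 24791662 to 28012092 reads, as recovered from the deposited values, and each member had between 517 and 21393 reads in every library. Mutant library 2 had no read on 13355 genes, against 4555 to 6292 in the other libraries. Of the 7587 genes with a wild-type mean at or above that of the lowest member, 786 had no read in that library, whereas all 11 members had reads in all 5 libraries. Values are FPKM (fragments per kilobase, scaled to sequencing depth by the authors), and differences are mutant minus wild-type on the log2(FPKM + 1) scale, with Benjamini-Hochberg adjusted p-values from limma over 13680 tested genes and a threshold of 0.05. The depth implied by this scaling was 1.23 times the recovered reads in mutant library 2 and 0.980 to 1.08 times in the other libraries. FPKM of mutant library 2 are therefore lower relative to its reads on genes. The labelled cell types were checked against markers. The osteoblast genes sp7, spp1 and panx3 stood at 193 to 279, 767 to 993 and 820 to 1493 FPKM over all libraries. alpl, another osteoblast gene, stood at 12.5, 14.2 and 13.5 FPKM in wild-type and at 9.61 and 0.0484 FPKM in mutant libraries 1 and 2. Of the 8 osteoblast markers, 3 lay below every wild-type library in both mutants and 1 above. The cartilage gene matn1 stood at 123, 150.4 and 97.3 FPKM in wild-type and at 43.9 and 33.7 FPKM in mutant libraries. Markers of gut, liver and pancreas summed to 50477 to 61754 FPKM in wild-type and 86406 and 35542 FPKM in mutant libraries 1 and 2, with apoa1b, an apolipoprotein of liver and gut, at 15232 to 49418 FPKM. Muscle markers summed to 1285 to 1768 and to 1380 and 791 FPKM in the same order, epidermis markers to 727 to 1593 and to 1228 and 603, blood and macrophage markers to 97.6 to 111.9 and to 172 and 109, and neuron and glia markers to 179 to 189.6 and to 197 and 59.8 FPKM, with 10 of 14 of the last at 0 in mutant library 2. Of 13 tested markers of gut, liver and pancreas, both mutants were above every wild-type library for 2, ins and fabp10a, and below for 0. The shares over all tested genes were 8.33% and 26.0%. ins stood at 0.369, 0.367 and 0.315 FPKM in wild-type and at 9.80 and 10.3 FPKM in mutant libraries. fabp10a stood at 7002, 5261 and 4795 against 13745 and 8633 FPKM. In these bulk libraries a change in the share of a cell type and a change of RNA per cell cannot be told apart.

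None of the 11 members passed the test, where 0.00731% of all tested genes did (adjusted p 0.399 to 0.899 over the members). The members did not differ in a single direction: 5 were higher in the mutants and 6 lower, and the median difference was -0.07 (log2), beside a median of -0.31 over all tested genes, of which 34.1% were higher. The median over all tested genes was -0.14 with no filter, -0.18 with a minimum of 5 FPKM, 0.01 after quantile normalization, -0.16 without mutant library 2 and -0.47 without mutant library 1. For 3 of 11 members both mutant libraries exceeded the whole wild-type range, p4ha1b, ppib and crtap, against 8.33% of tested genes, and below every one for 2 of 11, plod2 and plod3, against 26.0%. The first share, 27.3%, is above that background and the second, 18.2%, below it. Both backgrounds include genes without a read in mutant library 2, whereas all members had reads there. Such genes cannot lie above the wild-type range, so neither comparison is like with like. The members were also chosen with earlier results of these data known. The unadjusted p was under 0.05 for p4ha1b and ppib, with 3.21% of tested genes past it on the higher side, and for none on the lower side, where 7.60% of tested genes were.

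**Figure D1:**
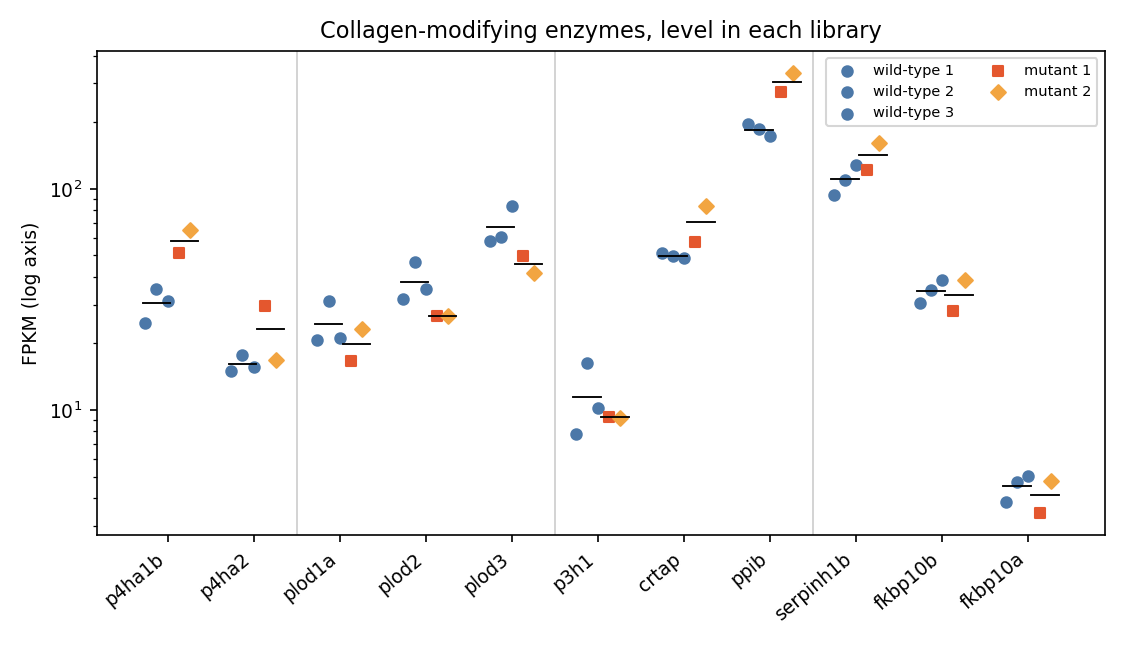
FPKM on a log axis of the 11 members in each library, with circles for wild-type, a square for mutant library 1 and a diamond for mutant library 2, and short lines at the group means. Both mutant points of p4ha1b, crtap and ppib lie above all wild-type points, and both of plod2 and plod3 lie below them.

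Among the prolyl 4-hydroxylase alpha subunits, which carry the catalytic site, p4ha1b was higher in both mutants. It lies on chromosome 15 (17956949 to 17967731, plus strand, gene length 4349 bp, ENSORLG00000005147) and stood at 24.8, 35.3 and 31.1 FPKM in wild-type siblings 1 to 3 and at 51.3 and 65.2 FPKM in mutant libraries 1 and 2. The groups did not overlap, and the lower mutant was well above the highest wild-type library. The mean went from 30.4 ± 5.27 (SD, n = 3) to 58.2 ± 9.78 FPKM (SD, n = 2), a ratio of 1.92. The log2 difference was 0.92 (SE 0.26, 95% interval 0.30 to 1.54), which limma placed at rank 169 of 13680 genes by p, with an unadjusted p of 0.00933 and an adjusted p of 0.399. The exact permutation p (two-sided) was 0.1, the smallest value that 3 against 2 libraries allow. A log2 difference at least as large was found for 3.81% of tested genes. In order of level p4ha1b was number 7 of the 11 members in the wild-type and number 4 in the mutants. Its span overlaps actn2b, a muscle gene on the same strand, by 1136 bp, and actn2b stood at 0.499 to 2.50 FPKM.

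The other alpha subunit with a symbol, p4ha2 (chromosome 14, 5494151 to 5533250, plus strand), differed in 1 mutant library only. It stood at 15.0, 17.8 and 15.7 FPKM in wild-type siblings and at 29.5 and 16.8 FPKM in the mutants. Mutant library 1 was above every wild-type library, while mutant library 2 lay inside their range, so the groups overlapped. On the log2 scale p4ha2 differed by 0.45 (SE 0.32, 95% interval -0.31 to 1.21, adjusted p = 0.463), 0.84 without mutant library 2 and 0.06 without mutant library 1. p4ha1b made up 62.4% to 66.5% of the summed FPKM of these subunits in wild-type siblings and 63.5% and 79.5% in mutant libraries 1 and 2.

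A gene without a symbol, described in the deposited table as prolyl 4-hydroxylase subunit alpha-1 (ENSORLG00000014906, chromosome 19, 24448638 to 24465138, minus strand), was lower in both mutants. It is no member, and it was looked up after its values could be seen. It stood at 16.9, 30.6 and 13.6 FPKM in wild-type siblings and at 11.3 and 2.62 FPKM in the mutants. Mutant library 2 had 149 reads on it against 679 to 1482 in the wild-type. It differed by -1.60 on the log2 scale (SE 0.58, adjusted p = 0.399). How reads that match both of these related alpha-1 genes were counted was not tested. p4ha3, a further alpha subunit, stood at 0.327 to 1.08 FPKM in 4 libraries, was listed at 0 in mutant library 2 and was not among the tested genes.

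The partner of the alpha subunits, p4hb, stood at 9.65, 8.41 and 7.10 FPKM in wild-type siblings and at 14.0 and 12.2 FPKM in the mutants. Both mutants were above the wild-type libraries, with a log2 difference of 0.59 (SE 0.33, adjusted p = 0.401). Per length, p4ha1b and p4ha2 together stood at 4.13 to 6.59 times p4hb in the wild-type and at 5.77 and 6.74 times in the mutants, so this ratio overlapped between the groups. The alpha-1 gene without a symbol is not counted in this ratio.

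The lysyl hydroxylases plod1a, plod2 and plod3 were each lower on average in the mutants, as were most tested genes (median -0.31, 34.1% higher). The difference of plod1a lay above that median and those of plod2 and plod3 below it. plod1a makes hydroxylysine in the helical part of the chain. On chromosome 7 (31481164 to 31506263, plus strand), it stood at 20.7, 31.3 and 21.2 FPKM in wild-type and at 16.7 and 23.2 FPKM in mutant libraries, and the groups overlapped (log2 difference -0.27, SE 0.31, adjusted p = 0.636). It was -0.49 without mutant library 2, -0.04 without mutant library 1 and -0.08 without wild-type library 2. plod2 hydroxylates the telopeptides, the short chain ends through which bone and cartilage collagens are cross-linked.

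The gene lies on chromosome 20 (18676481 to 18709390, plus strand). Its level was 31.7, 46.7 and 35.3 FPKM in wild-type siblings and 26.7 and 26.6 FPKM in the mutants. Both mutants lay just below the lowest wild-type library and next to each other. The mean went from 37.9 ± 7.82 (SD, n = 3) to 26.7 ± 0.0802 FPKM (SD, n = 2), a log2 difference of -0.47 (SE 0.27, 95% interval -1.09 to 0.15, adjusted p = 0.402).

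plod3 encodes the lysyl hydroxylase that also adds sugars to hydroxylysine. On chromosome 18 (180078 to 185706, minus strand), it stood at 58.0, 60.3 and 84.2 FPKM in wild-type siblings and at 49.7 and 41.5 FPKM in the mutants. Both mutants were below every wild-type library, and wild-type library 3 was the highest. The log2 difference was -0.54 (SE 0.26, 95% interval -1.15 to 0.06, adjusted p = 0.399). Its deposited gene length, 1095 bp, is short beside 3658 bp for plod1a and 4138 bp for plod2. With 1365 to 2792 reads, plod3 had fewer reads than plod2 in every library (2773 to 5656) although its FPKM was higher.

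A gene without a symbol that is described as the same enzyme (ENSORLG00000022313, 211035 to 215644, 618 bp) lies on the same strand 25328 bp from plod3 with 0 other genes of the table between them. It stood at 24.6, 31.5 and 38.0 FPKM in wild-type siblings and at 27.4 and 15.1 FPKM in the mutants. As for plod3, wild-type library 3 was the highest and mutant library 2 the lowest, but mutant library 1 lay inside the wild-type range (log2 difference -0.58, SE 0.34, adjusted p = 0.409). Whether the entries are parts of 1 gene was not tested.

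Prolyl 4-hydroxylase and lysyl hydroxylase transcripts stood in a different proportion in the mutants, a quantity taken within each library that depth scaling does not touch. The sum of p4ha1b and p4ha2 was 39.8, 53.1 and 46.8 FPKM in wild-type siblings and 80.9 and 82.0 FPKM in the mutants. This sum leaves out the gene without a symbol described as an alpha-1 subunit, which was lower in both mutants. That gene stood at 16.9, 30.6 and 13.6 against 11.3 and 2.62 FPKM. The sum of the lysyl hydroxylases was 110.4, 138 and 141 FPKM against 93.2 and 91.3 FPKM. The ratio of the sums was 0.361, 0.384 and 0.333 in wild-type and 0.868 and 0.898 in mutant libraries, a mean of 0.359 ± 0.0255 (SD, n = 3) against 0.883 ± 0.0214 (SD, n = 2), or 2.46 times higher. The mutant libraries, which differed in p4ha2, were close to each other in this ratio. It was formed after the values were known and carries no test.

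Without plod3 the ratio was 0.681 to 0.829 in wild-type and 1.86 and 1.65 in mutant libraries. When both genes without a symbol were added to their sums, it was 0.420, 0.493 and 0.338 in wild-type siblings against 0.765 and 0.795 in mutants, 1.87 times higher, so the size depends on which gene models are counted.

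**Figure D2:**
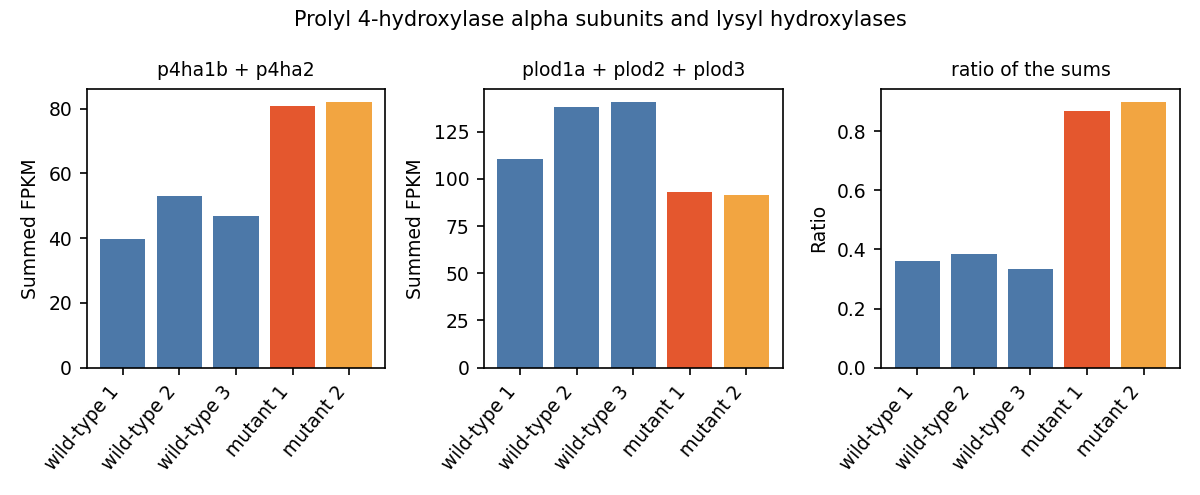
Bars give the summed FPKM of p4ha1b and p4ha2, the summed FPKM of plod1a, plod2 and plod3, and the ratio of these sums, in each of the 5 libraries. The ratio is 0.333 to 0.384 in the wild-type libraries and 0.868 and 0.898 in the mutants.

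In the prolyl 3-hydroxylation complex, ppib and crtap were higher in both mutants while p3h1 was not. ppib, also called cyclophilin B, turns proline bonds between cis and trans (chromosome 6, 8887587 to 8894831, minus strand). It was the most abundant member in every library, at 196, 186 and 173 FPKM in wild-type and 275 and 335 FPKM in mutant libraries. The wild-type libraries were close together and both mutants lay above them. The mean went from 185 ± 11.6 (SD, n = 3) to 305 ± 42.9 FPKM (SD, n = 2), a ratio of 1.65. The log2 difference was 0.71 (SE 0.21, 95% interval 0.23 to 1.20), rank 192 by p, with an unadjusted p of 0.0101 and an adjusted p of 0.399 from limma. The two-sided exact permutation p was 0.1, again the smallest possible, and 7.03% of tested genes had a log2 difference at least as large.

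crtap, the cartilage-associated protein that holds p3h1 in the complex (chromosome 11, 22173926 to 22181030, minus strand), was measured at 51.3, 49.9 and 48.6 FPKM in wild-type siblings and at 57.6 and 83.5 FPKM in the mutants. The wild-type libraries differed little, mutant library 1 was just above them and mutant library 2 far above. The log2 difference was 0.47 (SE 0.25, 95% interval -0.11 to 1.04, adjusted p = 0.399), 0.20 without mutant library 2 and 0.73 without mutant library 1.

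p3h1, the catalytic subunit (chromosome 5, 24451224 to 24468141, minus strand), was measured at 7.81, 16.4 and 10.2 FPKM in wild-type siblings and at 9.33 and 9.16 FPKM in the mutants. The mutants lay inside the wild-type range, and wild-type library 2 was the highest. Its log2 difference was -0.22 (SE 0.39, 95% interval -1.13 to 0.68, adjusted p = 0.756), and 0.05 without wild-type library 2. Its span overlaps C1orf50 on the other strand by 2066 bp, which stood at 78.2 to 145.6 FPKM, and whether counting used strand is not stated in the labels.

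Per length, the partners of p3h1 were in excess of it in every library. crtap stood at 6.56, 3.05 and 4.77 times p3h1 in wild-type libraries and at 6.17 and 9.12 times in the mutants, and these ranges overlapped. ppib stood at 25.1, 11.4 and 17.0 times p3h1 in wild-type and at 29.4 and 36.6 times in mutant libraries, so both mutants were above. The ratio of ppib to crtap was 3.83, 3.73 and 3.56 in wild-type and 4.77 and 4.01 in mutant libraries, again with both mutants above.

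Among the collagen chaperones, serpinh1b encodes HSP47, which binds the folded collagen helix in the ER. On chromosome 13 (28267486 to 28272228, plus strand), serpinh1b stood at 93.8, 109.9 and 128 FPKM in wild-type siblings and at 122 and 162 FPKM in the mutants. Mutant library 1 lay inside the wild-type range and mutant library 2 above it (log2 difference 0.35, SE 0.24, 95% interval -0.21 to 0.92, adjusted p = 0.448). It was 0.15 without mutant library 2 and 0.56 without mutant library 1. A further gene described in the deposited table as Serpin H1, serpinh2, is no member. It stood at 15.9, 19.4 and 22.8 FPKM in wild-type siblings and at 16.1 and 17.7 FPKM in the mutants. The groups overlapped for serpinh2, with a log2 difference of -0.17 (SE 0.29).

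fkbp10b, a copy of the gene for the collagen-binding prolyl isomerase FKBP65 (chromosome 19, 4903635 to 4911698, minus strand), was measured at 30.3, 34.9 and 38.7 FPKM in wild-type and at 28.0 and 38.5 FPKM in mutant libraries. The groups overlapped over nearly the whole range, with a log2 difference of -0.07 (SE 0.26, 95% interval -0.69 to 0.55, adjusted p = 0.899) whose sign changed to 0.04 with median-of-ratios scaling. The other copy, fkbp10a (chromosome 8, 5941317 to 5952120, plus strand), was the lowest member at 3.84, 4.74 and 5.01 against 3.42 and 4.79 FPKM (log2 difference -0.12, SE 0.41, adjusted p = 0.880), with a sign that changed to 0.11 after quantile normalization. Over 4691 bp, 43.4% of its span, fkbp10a overlaps a gene named NT5C3B on the other strand, listed at 0 FPKM in every library. fkbp10b overlaps another gene of that name by 705 bp, also on the other strand. The effect on the counts was not tested.

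Of the 55 pairs of members, the fkbp10 copies had the most alike profiles over the 5 libraries, with a root mean square difference of 0.05 in log2 values centred on the wild-type mean. fkbp10b stood at 7.36 to 7.90 times fkbp10a in wild-type libraries and at 8.20 and 8.04 times in the mutants. How reads that match both of these related copies were counted was not tested. Each copy also lies beside a copy of p3h4, which encodes a partner of lysyl hydroxylase in mice, on the opposite strand: fkbp10a is 1725 bp from p3h4 and fkbp10b is 1429 bp from a gene named P3H4. p3h4 stood at 39.6, 43.5 and 62.8 FPKM in wild-type and at 44.3 and 49.2 FPKM in mutant libraries, while P3H4 stood at 1.79, 1.98 and 2.25 against 1.13 and 8.32 FPKM. The abundant p3h4 thus neighbours the scarce fkbp10a, and the scarce P3H4 neighbours the abundant fkbp10b.

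**Figure D3:**
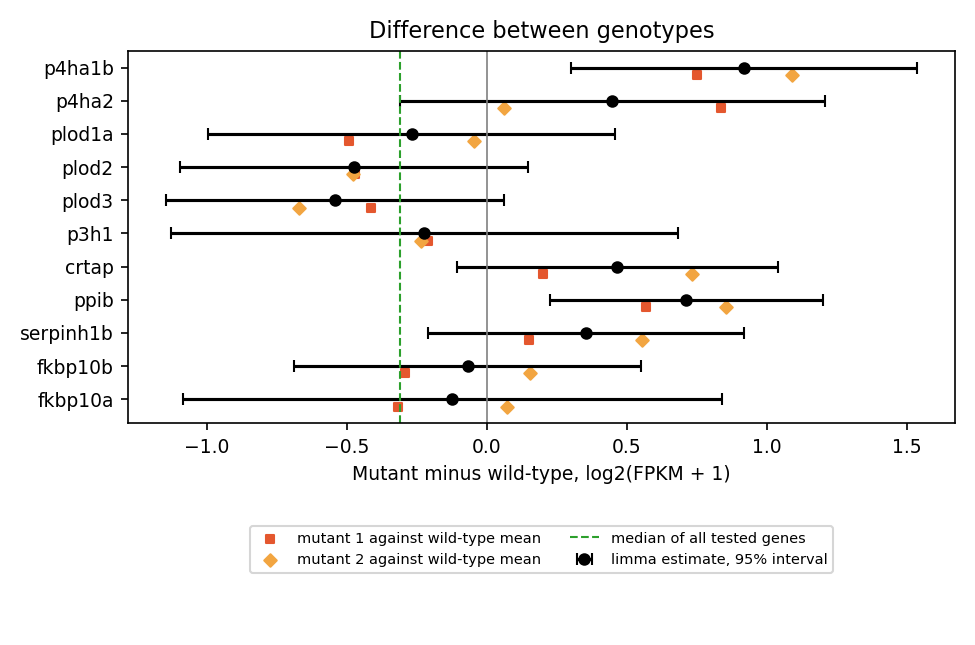
Black points and bars give the limma estimate of mutant minus wild-type on the log2(FPKM + 1) scale with its 95% interval for each member, coloured points each mutant library against the wild-type mean, and the dashed line the median of all tested genes at -0.31. The intervals of p4ha1b and ppib lie above 0, and those of the other 9 members include it.

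In wild-type cells the order of levels per length was ppib, serpinh1b, plod3, crtap, plod2, fkbp10b, p4ha1b, plod1a, p4ha2, p3h1 and fkbp10a. The ranges of neighbours in this order overlapped from plod2 through plod1a and between p4ha2 and p3h1, and did not overlap elsewhere. ppib was above 98.7% of all genes in the table by wild-type mean, p4ha1b above 92.0% and fkbp10a above 70.5%. Against the wild-type mean, the members had a median of -0.21 (mutant library 1) and 0.07 (mutant library 2), where the medians of all tested genes were -0.16 and -0.49. Against these medians the members were near the middle in mutant library 1 and above it in mutant library 2. The median in mutant library 2 includes genes without a read there, 786 of 7587 at or above the wild-type mean of the lowest member. All members had reads in that library, so this comparison is not like with like.

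The profiles nearest to that of p4ha1b, among 3792 genes that carry a symbol and average at least 10 FPKM, were those of golt1ba, a Golgi vesicle transport protein, copb1, a subunit of the coatomer coat, and zgc:158640, described as intraflagellar transport protein 25. Their root mean square differences over 5 libraries were 0.11, 0.11 and 0.13 on the log2 scale. golt1ba stood at 19.4, 22.5 and 22.4 FPKM in wild-type and at 33.6 and 47.2 FPKM in mutant libraries, and copb1 at 21.6, 30.7 and 28.5 against 39.3 and 53.7 FPKM. Nearest to ppib were JMJD8, a JmjC domain protein, commd3 and the ribosomal protein gene rpl7, at 0.06 each. JMJD8 stood at 15.9, 13.9 and 14.1 FPKM in wild-type and at 21.5 and 28.6 FPKM in mutant libraries. None of these 6 genes passed the test (adjusted p = 0.399).

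Other collagen-modifying genes of the ER were also split, with 9 of 14 tested genes higher, 5 lower, a median difference of 0.29 (log2) and 0 past the threshold in either direction. The prolyl isomerase genes fkbp11, fkbp14 and fkbp7 differed by 1.55, 0.95 and 0.83. fkbp11 stood at 12.9, 12.1 and 8.28 FPKM in wild-type and at 26.1 and 43.9 FPKM in mutant libraries, and fkbp14 at 30.5, 44.0 and 39.0 against 54.9 and 96.9 FPKM. Both mutants were above every wild-type library for 5 of the 14, against 8.33% of all tested genes, and below for 2, against 26.0%. The collagen galactosyltransferase gene colgalt2 was at 1.82, 2.99 and 3.14 FPKM in wild-type siblings, at 0.856 in mutant library 1 and listed at 0 in mutant library 2, and the prolyl 3-hydroxylase gene p3h2 at 8.35, 11.1 and 11.9 FPKM, at 6.04 and listed at 0. colgalt1, another collagen galactosyltransferase gene, differed by -1.15 with overlapping groups.

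Genes that act on collagen outside the cell were lower in 13 of 15 and higher in 2, with 0 past the threshold. Their median was -0.80, beside -0.31 over all tested genes, of which 34.1% were higher. The lysyl oxidase gene loxl2a stood at 12.4, 10.6 and 10.5 FPKM in wild-type siblings and at 6.56 and 0.984 FPKM in the mutants, and pcolce2b, an enhancer of propeptide removal, at 29.3, 35.9 and 25.1 against 21.2 and 1.14 FPKM. adamts14, which removes the amino-terminal propeptide, and bmp1a, which removes the carboxy-terminal one, differed by -1.35 and -1.15. For these 4 genes mutant library 2 was the lowest of all libraries. Both mutants lay below every wild-type library for 7 of the 15, against 26.0% of all tested genes.

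Procollagen export genes went both ways, with 5 of 13 higher, 8 lower, a median of -0.22 and 0 past the threshold. KDELR2, a receptor that returns ER proteins from the Golgi, stood at 88.3, 117.9 and 110.5 FPKM in wild-type and at 152 and 361 FPKM in mutant libraries. creb3l2, a transcription factor of secretory capacity in cartilage, stood at 8.58, 12.5 and 11.5 FPKM against 7.65 and 2.93. trappc2 and the coat subunit gene sec13 differed by 0.90 and 0.47 with overlapping groups.

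Among general ER chaperones, which are not specific to collagen, 11 of 13 were higher and 2 lower, with a median of 0.66 and 0 past the threshold. The 4 with the smallest p, manf, pdia6, dnajc3a and creld2, differed by 1.74, 1.37, 1.15 and 1.58. The difference of p4ha1b, 0.92, lay below all of these 4, which were named by smallest p. The differences of p4ha1b and of ppib, 0.71, lay above the median of this list, and those of all other members lay below it. Targets of hypoxia-inducible factor, to which p4ha1, p4ha2 and plod2 belong in mammals, were lower in 11 of 16 and higher in 5. This split was near that of all tested genes, of which 34.1% were higher. The median was -0.58, beside -0.31 over all tested genes, with 0 past the threshold. Both mutants lay below every wild-type library for 7 of the 16, against 26.0% of all tested genes, and above for 1, against 8.33%. egln3, a hydroxylase of that factor, was higher, at 10.4, 9.18 and 11.1 FPKM in wild-type and 19.9 and 47.3 FPKM in mutant libraries, while aldoa, eno1a and pdk1 differed by -1.10, -0.70 and -1.28.

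The substrates of the members, collagen chains of the fibrillar types, of types IX and XII that lie on fibrils, and of type X, were lower in 15 of 16 tested genes and higher in 1, with a median of -0.71, beside -0.31 over all tested genes, and 0 past the threshold. Their summed FPKM was 6558, 9166 and 8180 in wild-type libraries and 4981 and 5355 in the mutants, of which col10a1a made up 77.2% to 82.9%. For each 100 FPKM of collagen chains there were 0.607, 0.579 and 0.572 FPKM of p4ha1b and p4ha2 together in wild-type and 1.62 and 1.53 in mutant libraries. For serpinh1b the values were 1.43, 1.20 and 1.56 against 2.45 and 3.02, and for the lysyl hydroxylases 1.68, 1.51 and 1.72 against 1.87 and 1.70. The ratios for p4ha1b with p4ha2 and for serpinh1b did not overlap between the groups, whereas the lysyl hydroxylase ratio did. Both genes without a symbol are left out of these ratios, and the alpha-1 gene among them was lower in both mutants. Because col10a1a makes up most of the sum, these are mainly ratios to col10a1a. Which copy is mutated is not stated in the labels.

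Of the markers of the labelled cell types, those of chondrocytes were lower in 11 of 11 tested genes, where 34.1% of all tested genes were higher. Both mutants were below every wild-type library for 9 of the 11, against 26.0% of all tested genes. This list and the osteoblast list were chosen with earlier results of these data known, so these counts are descriptions and not tests. Separate entries named col2a1a count as different genes here, and they also count among the collagen chains. The chondrocyte markers summed to 297 to 369 FPKM in wild-type and 132 and 148 FPKM in mutant libraries. Osteoblast markers were higher in 4 and lower in 4 of 8. Both mutants were below every wild-type library for 3 of the 8, col1a1b, phex and alpl, against 26.0% of all tested genes. Both were above for 1, ifitm5, against 8.33%. The osteoblast markers summed to 3464 to 4506 FPKM in wild-type and to 4101 and 5100 FPKM in mutant libraries, so that sum overlapped between the groups. None of either list passed the test. The part of these markers in the differences of the members was not tested.

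Over the alternative settings p4ha1b differed by 0.75 to 1.09 and ppib by 0.57 to 0.86 on the log2 scale, higher in the mutants each time. Their unadjusted p from limma did not stay under 0.05 in every setting that kept all 5 libraries. It was 0.0697 for p4ha1b and 0.0821 for ppib with array weights, and 0.0208 and 0.0550 with the replicate block. Both, and crtap, passed only without mutant library 1, with log2 differences of 1.09, 0.86 and 0.73 and adjusted p-values of 0.00950, 0.0115 and 0.0283. In that fit the sparse mutant library 2 is the only mutant, its spread is assumed to be that of the wild-type libraries, and 7239 genes passed. Without mutant library 2 p4ha1b and ppib differed by 0.75 and 0.57 and had adjusted p-values of 0.643 and 0.661.

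**Figure D4:**
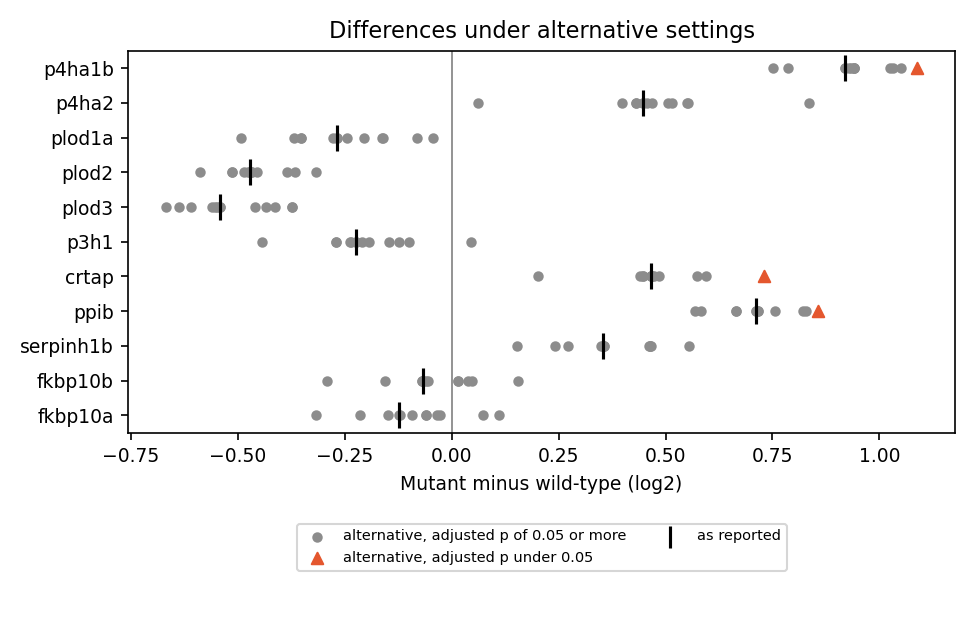
Mutant minus wild-type on the log2 scale for each member as reported (black bar) and under each alternative setting (grey points, or red triangles where the adjusted p was under 0.05). The triangles, for p4ha1b, crtap and ppib, all come from leaving out mutant library 1, and the points of p3h1, fkbp10b and fkbp10a lie on both sides of 0.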

How the data were processed

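RNA was isolated with a Direct-zol MicroPrep kit and converted to libraries with a SMARTER mRNA-Seq kit, per the labels' protocols. HISAT2 2.0.5 (aligner) and featureCounts 1.5.0-p3 (read counter) are named in the submitters' processing notes. No build, annotation release or strandedness was given in the sources used here, and coordinates were taken as deposited. The authors deposited FPKM for each gene and library, with gene lengths. FPKM times length came to whole reads (within 0.02) for 100.0% of values, and the depths given are sums of these reads, which are not molecules.

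Genes reaching 1 FPKM in 2 or more libraries were fitted as log2(FPKM + 1) by limma 3.58.1 under R 4.3.3 with empirical Bayes moderation, a mean-variance trend and no covariate. Changes of low genes are understated on this scale. Tables used python 3.11.15, pandas 2.3.3, numpy 2.4.6 and scipy 1.17.1, and plots matplotlib 3.10.9. The fit was tested on simulated reads with the wild-type mean of each gene and the same fixed setting of spread for every gene. That spread was not estimated from the libraries, and the simulation did not include the sparseness of mutant library 2. All members are named, as are up to 4 genes of a list by smallest p and the 3 profiles nearest to p4ha1b and to ppib. Named after seeing values were fkbp7, colgalt1, p4hb, p3h4, P3H4, C1orf50, actn2b, NT5C3B, apoa1b, sp7, spp1, panx3 and both genes that lack a symbol. The markers sox9, col2a1a and comp, which count in the chondrocyte list but have no values given here, were also named after seeing values. Also named outside these rules are p4ha3, serpinh2 and col10a1a. Members and lists were chosen with earlier results of these data known. P-values measure only the spread between these libraries.

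Alternative settings changed the pseudocount (0.1), the filter (none, or 5 FPKM), the scaling (median of ratios, quantile), the model (voom on recovered reads, array weights, a replicate block) or the libraries used (each left out once). For the ratio of summed hydroxylases, the other sums, reads and left-out libraries were chosen after seeing the data.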

Additional observations from a re-analysis of the deposited data

How the results depend on the processing

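No member passed under any setting that kept all 5 libraries, and leaving out each library gave 0 to 3 members past the threshold, the 3 without mutant library 1. Over all tested genes 1 passed, between 1 and 7239 when each library was left out. With the replicate number as a block 145 genes passed, 0 of them members. The numbers share no stated litter or batch, so the block was not used for the main result. Deviations of same-numbered libraries from their group mean had a correlation across genes of 0.06 for number 1 and -0.01 for number 2. With 2 mutant libraries the mutant deviations are equal and opposite, so these correlations cannot decide whether a batch was shared. The members' median log2 difference, -0.07, was 0.14 with a minimum of 5 FPKM, which removed fkbp10a, 0.11 after quantile normalization, which moved the median of all tested genes from -0.31 to 0.01, and -0.21 to 0.0731 when each library was left out. The sign of fkbp10b changed with median-of-ratios scaling (0.0377), voom (0.0472) and the block (0.0141) and ran from -0.29 to 0.16 over left-out libraries. fkbp10a changed sign after quantile normalization (0.11) and ran from -0.32 to 0.0731, and p3h1 from -0.44 to 0.0460. The causes were not tested. The log2 ratio of prolyl 4-hydroxylase to lysyl hydroxylase sums differed by 1.30, by 0.92 with the genes without a symbol added and by 1.25 to 1.35 when each library was left out. The other 8 members kept their sign under every setting run. With 2 mutant libraries, 1 of them sparse, the intervals of the members span 0.97 to 1.93 log2 units.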
